A study of Mus musculus with 7 samples.

Results

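Surfactant proteins and airway secretory proteins belong to the lung, but medullary epithelial cells of the thymus also transcribe genes of this kind at low frequency and so show lung antigens to developing T cells. The genes described here are 10 lung secretory genes, chosen by name. They include the surfactant protein genes Sftpa1, Sftpb, Sftpc and Sftpd and the secretoglobin genes Scgb1a1, Scgb3a1 and Scgb3a2. The others are the club cell enzyme gene Cyp2f2, the protease gene Napsa and the airway defence gene Bpifa1. Which of the 10 the medullary cells themselves transcribe was not tested. All 10 were measured, each by 1 probe set, among 19937 genes and 34760 probe sets of an Affymetrix mouse array. The sorted cells were MHC class II-high medullary epithelial cells from the thymi of NOD mice, which carried either a null RAG1 allele (reconRAG1KO, 4 samples, the control of the series) or the SCID mutation in DNA-PK (reconSCID, 3 samples). Both mutations block the development of lymphocytes. Pups of both groups, aged 2 to 4 days, were irradiated with 200 rad and 6 h later received bone marrow by intraperitoneal injection, and their thymi were taken after a further 6 to 8 weeks. The titles call the samples biological replicates. The number of thymi in each sample, the sex of the mice and the donor strain of the marrow are not given in the sources used here, and a control group that was neither irradiated nor reconstituted was not analysed here. Each p-value sets a difference against the spread between these samples, part of which may be technical.

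In the lung, surfactant lowers surface tension at the air surface of the alveoli. Its small hydrophobic proteins SP-B and SP-C spread the lipid film, and its collectins SP-A and SP-D bind microbes. Club cells and goblet cells of the airways secrete secretoglobins and BPI-fold proteins into the mucus. In the thymus, the transcriptional regulator Aire turns on many tissue-restricted genes, each in a small share of the medullary cells, so that T cells reactive to them can be removed. DNA-PK, a kinase of DNA end joining, is a known binding partner of Aire. The comparison of the groups therefore asks whether lung antigens are transcribed differently in an irradiated medullary epithelium whose own DNA-PK is defective. As all mice were irradiated, the defect itself and the response of defective cells to irradiation cannot be told apart.

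Medullary epithelial markers were bright on all arrays, with a mean log2 intensity over 9 genes of 9.97 to 10.36 in reconRAG1KO and 9.27 to 10.28 in reconSCID, where the median of all probe sets of an array lay between 6.47 and 6.59. All 9 were lower in reconSCID, with a median difference of -0.42, or -0.52 when blocked by array set, and 0 of them passed at an adjusted p under 0.05. A pair of arrays, reconRAG1KO replicate 4 and reconSCID replicate 2, stood apart. Over all probe sets these 2 had a correlation of 0.972, the other 5 had 0.976 to 0.990 between them, and any 2 arrays from different sets had 0.922 to 0.947. The labels name no batch. The median difference of the medullary markers was -0.73 within the larger set, of 5 arrays, and -0.01 between the 2 arrays of the smaller set. Each array set holds samples of both groups, and differences are given from a fit without a block and, for the 10 genes and most others named, also from a fit blocked by array set (the blocked fit). A difference is the reconSCID mean log2 intensity minus that of reconRAG1KO, and comes with a 95% interval from limma. Of all probe sets 0% (0 of 34760) passed at an adjusted p under 0.05 without the block, and likewise 0% with it, so no lung antigen passed in either fit. At an unadjusted p under 0.05, 1 of the 10 genes was lower and 0 were higher, where 1.19% of all genes were lower and 0.863% were higher.

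Among the 10 genes, Bpifa1 and Scgb1a1 showed the differences that were largest against their own spread. Bpifa1 was lower in reconSCID by 0.69 on the log2 scale in the blocked fit, to 0.620 of the control intensity. Without the block its difference was -0.61, with an interval that included 0, and its groups overlapped. The array sets of the block were found by clustering these same arrays, and the block takes the difference between the sets out of the spread. Scgb1a1 was lower by 0.31, to 0.809 of the control, in the fit without a block, and was the only one of the 10 whose groups did not overlap. None of the 4 surfactant protein genes had an interval that excluded 0 in either fit. Of the 10 differences 7 were below 0 without the block, where 52.4% of all genes were, and their median was -0.09, beside -0.0074 over all genes. With the block 8 of 10 were below 0 and the median was -0.12, beside -0.014 over all genes.

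**Figure D1:**
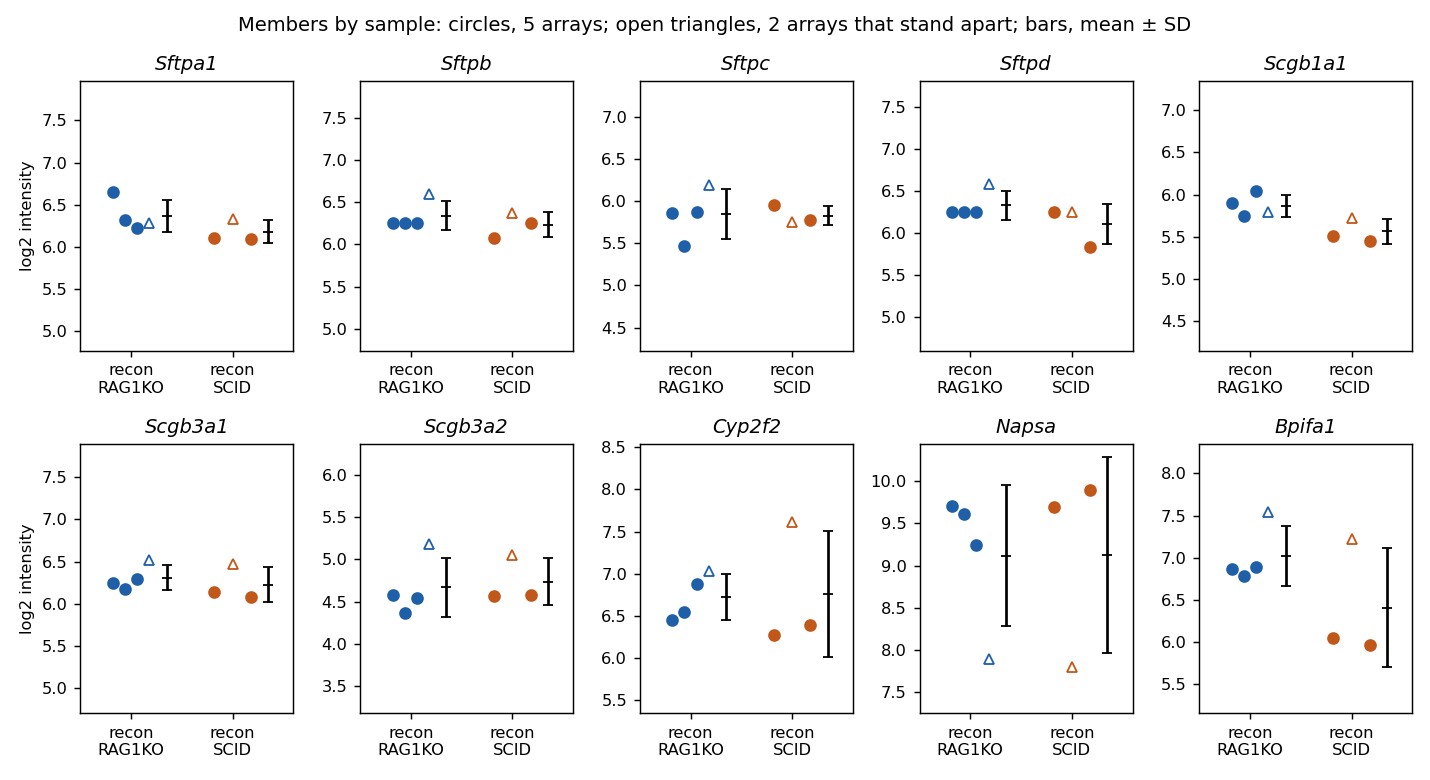
Log2 intensity of each of the 10 genes (y axis, the same span in each panel) by group (x axis). Each point is 1 sample, open triangles are the 2 arrays that correlate less with the other 5, and black bars are the group mean ± SD (n = 4 and n = 3). The triangles lie highest in Bpifa1, Cyp2f2 and Scgb3a2 within each group and lowest in Napsa, and Scgb1a1 has no overlap between groups.

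Bpifa1 encodes an abundant secreted protein of the upper airway (also called SPLUNC1 or Plunc), which limits bacterial growth and restrains the epithelial sodium channel. Its probe set, 10477475, had log2 intensities of 6.86, 6.78, 6.89 and 7.54 in reconRAG1KO replicates 1 to 4 and of 6.04, 7.22 and 5.96 in reconSCID replicates 1 to 3. The highest sample of each group was the array of the smaller set, and the groups overlapped only through reconSCID replicate 2, which exceeded reconRAG1KO replicates 1 to 3. The means were 7.02 ± 0.35 (SD, n = 4) and 6.41 ± 0.70 (SD, n = 3). The difference was -0.61 ± 0.35 (SE), with an interval from -1.44 to 0.22, a limma p of 0.127 and an adjusted p of 1. The blocked fit gave -0.69 ± 0.11 (SE), with an interval from -0.97 to -0.41, a p of 0.00103 and an adjusted p of 0.233. Within the larger array set, where 3 control samples at 6.78 to 6.89 stood above 2 reconSCID samples at 5.96 and 6.04, the difference was -0.84, with a limma p of 8.78e-05 and an adjusted p of 0.165. Between the 2 arrays of the smaller set, which allow no test, it was -0.32. The difference without the block depended on single samples and was -1.02 without reconSCID replicate 2 and -0.39 without reconSCID replicate 3. With the block and each sample left out in turn, an alternative added after the data had been seen, it ran from -0.84 to -0.61, with unadjusted p-values from 8.78e-05 to 0.00729.

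Bpifb1 (LPLUNC1), a further BPI-fold protein of the airway mucus and a known lung autoantigen where Aire is deficient, is separated from Bpifa1 on the chromosome by 1 coding gene, Bpifa5. Bpifb1 measured 6.27, 6.45, 6.48 and 7.20 in reconRAG1KO and 6.23, 6.20 and 5.94 in reconSCID. Every reconSCID sample was below every control sample, but reconSCID replicate 1 only just so. The difference of Bpifb1 was -0.47, with an interval from -1.02 to 0.07 and a limma p of 0.0800. Blocking by array set moved it to -0.51 (interval from -0.91 to -0.12, unadjusted p of 0.0191), and leaving out reconRAG1KO replicate 4, the highest sample, moved the value without a block to -0.27. The 250 bases before the starts of both genes are shown because these neighbours had the same direction of difference. They come from RefSeq (GRCm38.p6) and are printed on the plus strand, 5′ to 3′. Capitals mark TATAAA or TATTTAC, searched on both strands. Bpifb1 has a pair of annotated starts.
Bpifa1, chr2:154142630-154142879: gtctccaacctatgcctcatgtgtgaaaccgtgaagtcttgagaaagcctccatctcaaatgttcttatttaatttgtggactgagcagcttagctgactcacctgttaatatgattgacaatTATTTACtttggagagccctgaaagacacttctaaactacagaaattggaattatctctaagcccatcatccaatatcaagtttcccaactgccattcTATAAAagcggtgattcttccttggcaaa
Bpifb1, first start, chr2:154190568-154190817: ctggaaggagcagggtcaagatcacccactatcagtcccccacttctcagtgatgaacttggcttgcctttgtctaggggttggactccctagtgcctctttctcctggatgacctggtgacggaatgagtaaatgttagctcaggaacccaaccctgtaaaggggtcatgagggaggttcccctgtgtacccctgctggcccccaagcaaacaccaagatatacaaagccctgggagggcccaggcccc
Bpifb1, second start, chr2:154200130-154200379: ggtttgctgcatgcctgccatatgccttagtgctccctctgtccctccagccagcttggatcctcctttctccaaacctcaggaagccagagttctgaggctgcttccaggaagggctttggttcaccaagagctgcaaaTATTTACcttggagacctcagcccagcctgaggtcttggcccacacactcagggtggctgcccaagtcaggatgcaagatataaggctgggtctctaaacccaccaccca
TATAAA, the core of a TATA box, lies 29 bases before the start of Bpifa1 and was found in 12.4% of 32851 promoters of the same length. TATTTAC, a core bound by forkhead factors such as FOXA1 and FOXA2, lies 127 bases before the start of Bpifa1 and 110 bases before the second start of Bpifb1. It or TGTTTAC was found in 5.8% of promoters. The motifs were picked with these sequences in view, and a match is a run of letters, not a binding site. Promoters of 5 of the 10 genes were kept, after those of 1 chromosome had been left out. Among the 4 of these besides Bpifa1 only Sftpa1 had a match, TATAAA 30 bases before its start.

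Scgb1a1 (probe set 10465840) encodes the club cell secretory protein, also called CC10, an anti-inflammatory secretoglobin that is the standard marker of club cells. It measured 5.90, 5.74, 6.04 and 5.79 in reconRAG1KO and 5.51, 5.72 and 5.45 in reconSCID. The groups did not overlap, but reconSCID replicate 2 at 5.72 lay just below reconRAG1KO replicate 2 at 5.74. Groups without overlap and lower in reconSCID were found in 1 of the 10 genes and in 1.54% of all genes. The means were 5.87 ± 0.13 (SD, n = 4) and 5.56 ± 0.14 (SD, n = 3), both below the median of the arrays. The difference was -0.31 ± 0.11 (SE; interval from -0.58 to -0.03), with a limma p of 0.0333 and an adjusted p of 1. The blocked fit also gave -0.31, with an interval from -0.57 to -0.05, a p of 0.0272 and an adjusted p of 0.348. It was -0.41 within the larger set and -0.07 in the smaller set, where the mean of the gene was only 0.03 above that of the larger set. Leaving out 1 sample at a time moved the difference between -0.39 and -0.25, and the interval included 0 without reconRAG1KO replicate 1 or 3 or reconSCID replicate 1 or 3, with an unadjusted p of up to 0.105. In the blocked fit, by the same alternative as for Bpifa1, it ran from -0.41 to -0.25 with an unadjusted p of up to 0.100, and the p was above 0.05 without reconRAG1KO replicate 1 or reconSCID replicate 1 or 3.

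Scgb3a1 and Scgb3a2 encode small secreted proteins of larger and smaller airways. Scgb3a1 (probe set 10375608) measured 6.25, 6.17, 6.30 and 6.52 in reconRAG1KO and 6.13, 6.47 and 6.08 in reconSCID, and differed by -0.08 (interval from -0.40 to 0.24). Both arrays of the smaller set were the highest of their group, and in the blocked fit it differed by -0.11 (interval from -0.25 to 0.04). Scgb3a2 (probe set 10455389) measured 4.58, 4.37, 4.55 and 5.18 against 4.56, 5.06 and 4.58. Its groups overlapped in full, and 2 of the arrays held the same deposited value. Scgb3a2 differed by 0.07 (interval from -0.47 to 0.60), and by 0.02 with the block, with an interval from -0.18 to 0.21. Of the 3 secretoglobin genes, 1 therefore had a difference whose interval excluded 0. The blocked intervals of the other 2 reached no further than 0.25 below and 0.21 above 0. Without the block those of the same 2 genes reached 0.47 below and 0.60 above 0. These are limits on intensity, and how far it follows the transcript was not tested.

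Cyp2f2 encodes a cytochrome P450 of mouse club cells that oxidises inhaled naphthalene. Its probe set, 10551293, measured 6.45, 6.55, 6.88 and 7.03 in reconRAG1KO and 6.27, 7.62 and 6.39 in reconSCID. ReconSCID replicate 2 was the highest of all 7 arrays and the other reconSCID samples were the lowest, so the direction of the difference turned on that sample. Over all arrays the difference of Cyp2f2 was 0.03, with an interval from -0.79 to 0.86. It was -0.40 without reconSCID replicate 2, -0.04 in the blocked fit (interval from -0.53 to 0.46), -0.30 within the larger set and 0.58 between the arrays of the smaller set.

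The collectin genes Sftpa1 and Sftpd, neighbours with 1 coding gene (Mbl1) between them, both had lower means in reconSCID, by differences whose intervals included 0. Sftpa1 (probe set 10414202), the gene of SP-A, measured 6.65, 6.32, 6.22 and 6.29 in reconRAG1KO and 6.11, 6.33 and 6.09 in reconSCID. Its difference of -0.19 had an interval from -0.51 to 0.13, and it was the same in the blocked fit. The groups overlapped only through reconSCID replicate 2. Sftpd (probe set 10419096), the gene of SP-D, was deposited at exactly 6.25 in 5 of the 7 arrays, at 6.58 in reconRAG1KO replicate 4 and at 5.83 in reconSCID replicate 3. Its difference of -0.22, with an interval from -0.58 to 0.13, and of -0.25 with the block, with an interval from -0.51 to 0.02, therefore rests on these 2 arrays. Such identical values can hide part of the spread between samples.

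SP-B and SP-C are made as longer proteins and trimmed in alveolar type 2 cells. Sftpb (probe set 10539091) was deposited at the same value, 6.25, in reconRAG1KO replicates 1, 2 and 3 and reconSCID replicate 3, and measured 6.60, 6.08 and 6.38 in reconRAG1KO replicate 4 and reconSCID replicates 1 and 2. Sftpb differed by -0.10 (interval from -0.41 to 0.21), and by -0.13 with the block, with an interval from -0.29 to 0.04. Sftpc, the most specific marker of alveolar type 2 cells, measured 5.86, 5.46, 5.87 and 6.19 in reconRAG1KO and 5.96, 5.76 and 5.77 in reconSCID (probe set 10421387). All 3 reconSCID samples lay within the range of the controls. Sftpc differed by -0.02, with an interval from -0.43 to 0.40, and by -0.03 with the block, with an interval from -0.43 to 0.37. Differences in intensity of up to 0.43 below and 0.40 above 0 therefore remain possible for Sftpc at this number of arrays. Both group means of Sftpc were below the median of the arrays, and how far such a signal follows the transcript was not tested.

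Napsa encodes napsin A, an aspartic protease that helps to trim SP-B and SP-C. Its probe set, 10552697, was the brightest of the 10, a rank that also depends on the probes, and had the widest range over the arrays, 2.11. It measured 9.71, 9.62, 9.25 and 7.90 in reconRAG1KO and 9.70, 7.79 and 9.90 in reconSCID. The array of the smaller set was the lowest of each group by more than 1, and the other 5 samples of both groups lay together. Napsa was the 1 gene of the 10 with a lower mean in the smaller array set, 7.85 against 9.63. The groups differed by 0.01 (interval from -1.53 to 1.55), and by 0.16 in the blocked fit, with an interval from -0.20 to 0.52. Over the 7 arrays the genes whose levels were most like those of Napsa, among 18696 genes, were Coro1a (Pearson r = 0.999), Erp29 (0.998), Nckap1l (0.997) and Alox5ap (0.996). Coro1a and Nckap1l are actin regulators of blood cells, Alox5ap serves leukotriene synthesis in myeloid cells and Erp29 is a chaperone of the endoplasmic reticulum. Coro1a averaged 10.48 in the larger set and 8.12 in the smaller, and Alox5ap 9.57 and 6.99, so the array sets shape these correlations.

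**Figure D2:**
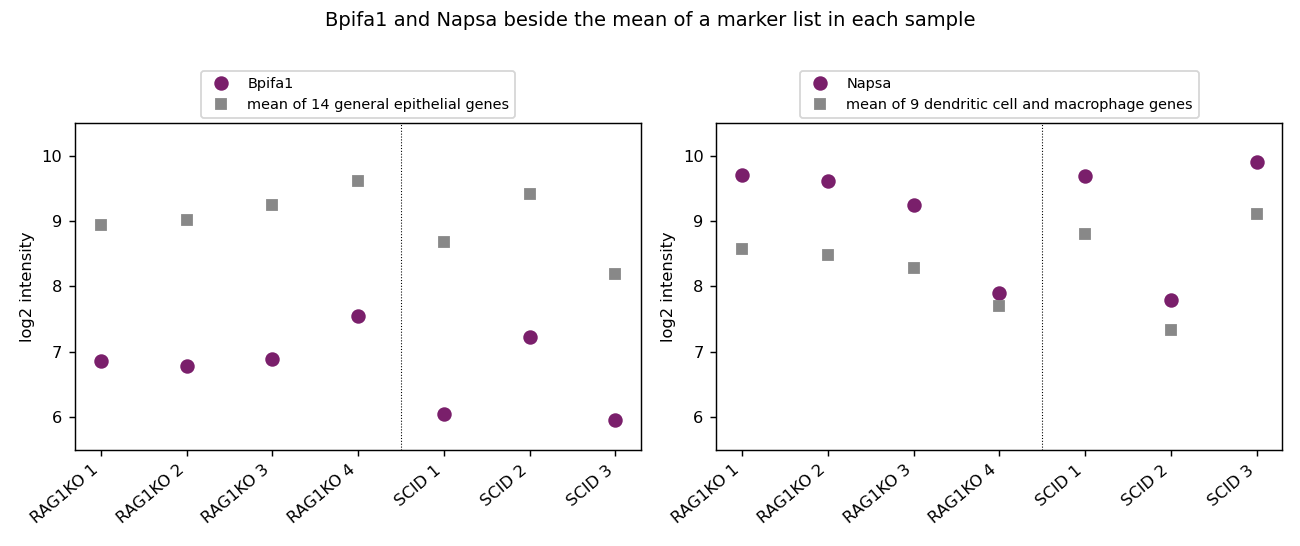
Log2 intensity (y axis) in each of the 7 samples (x axis, groups divided by the dotted line) for Bpifa1 beside the mean of 14 general epithelial genes (left) and Napsa beside the mean of 9 dendritic cell and macrophage genes (right). Both series of each panel are highest or lowest in the same samples: Bpifa1 and the epithelial mean are highest in reconRAG1KO replicate 4, and Napsa and the dendritic cell and macrophage mean are lowest in reconSCID replicate 2. The thymocyte and neutrophil means, not drawn, were lowest in reconSCID replicate 2 too.

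The sorted cells held transcripts of other cell types, and these varied between samples along with some of the 10 genes. In a bulk sample, fewer cells of a type and less RNA per cell cannot be told apart. The mean of 14 general epithelial genes was 8.94, 9.02, 9.25 and 9.61 in reconRAG1KO and 8.68, 9.42 and 8.18 in reconSCID. All 14 were lower in reconSCID, with a median difference of -0.46, or -0.50 in the blocked fit, and blocked differences from -0.80 (Krt18) to -0.18. The blocked value of Bpifa1, -0.69, lies inside that range. At an unadjusted limma p under 0.05, 0 of the 14 were lower without the block. In the blocked fit 9 were lower and 0 higher (against 6.75% and 5.34% of all genes). Of the 9 medullary markers, 4 were lower and 0 higher in that fit. Within the larger set 13 of the 14 were lower in both reconSCID samples than in all 3 controls, as were 18.1% of all genes. The median difference of the 14 was -0.67 within the larger set and -0.20 between the 2 arrays of the smaller set. Aire measured 10.90, 10.89, 11.09 and 11.93 in reconRAG1KO and 10.70, 11.46 and 9.73 in reconSCID. It differed by -0.57 (interval from -1.63 to 0.49). With the block Aire differed by -0.67, with an interval from -1.25 to -0.08, a limma p of 0.0312 and an adjusted p of 0.359. B cell genes were higher in reconSCID in 9 of 9 cases, with a median of 0.99 and list means of 6.53 to 6.87 in reconRAG1KO and 6.74 to 8.58 in reconSCID. Neutrophil genes were lower in 9 of 9 cases, with a median of -1.47 and list means of 6.38 to 8.94 in reconRAG1KO and 6.04 to 6.94 in reconSCID. The part of epithelial, B cell or neutrophil content or of the Aire level in the differences of Bpifa1 and Scgb1a1 was not tested. The mean of 9 dendritic cell and macrophage genes, 8.57, 8.47, 8.28 and 7.70 in reconRAG1KO and 8.80, 7.33 and 9.11 in reconSCID, was lowest in the same 2 arrays as Napsa. Its set means were 8.64 in the larger and 7.52 in the smaller set. The means of the thymocyte genes (7.34 and 7.17) and of the neutrophil genes (6.38 and 6.04) were also lowest in these 2 arrays, and that of the B cell genes was not. The part of any of these lists in the Napsa signal was not tested. Marco, 1 of these 9 dendritic cell and macrophage genes and a marker of alveolar macrophages, lay at 6.25 to 6.43. That is below the median of every array (lowest 6.47), and how far such a signal follows the transcript was not tested.

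**Figure D3:**
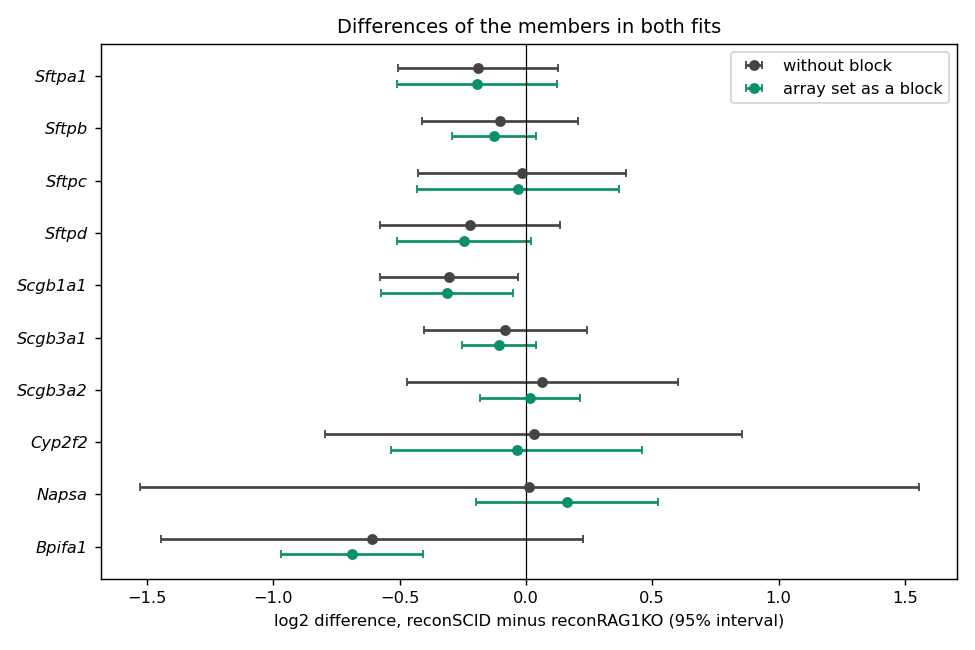
Log2 difference of each gene, reconSCID minus reconRAG1KO (x axis), with its 95% interval, without a block (grey) and in the blocked fit (green), over 4 and 3 samples. The intervals of Scgb1a1 exclude 0 in both fits and that of Bpifa1 only with the block, while the interval of Napsa narrows from a width of 3.08 with the block added.

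The levels of these genes also differed between the array sets. In the smaller set 9 of the 10 had a higher mean than in the larger, by 0.87 for Bpifa1, 0.82 for Cyp2f2 and 0.59 for Scgb3a2. How many of all genes were higher there was not counted, so this is no trait of the 10. The arrays of the smaller set also had the highest medians over all probe sets, 6.59 and 6.57, against 6.47 to 6.50 in the larger set. In the blocked fit, 2 of the 10 genes (Bpifa1 and Scgb1a1) were lower at an unadjusted p under 0.05 and 0 were higher, where 6.75% of all genes were lower and 5.34% higher. Adjusted p-values of the 10 ran from 0.233 to 0.947. Within the larger set, 5 of the 10 (Sftpa1, Scgb1a1, Scgb3a1, Cyp2f2 and Bpifa1) were lower in both reconSCID samples than in all 3 controls, as were 18.1% of all genes. The mean level of the 10 genes was 6.48, 6.35, 6.45 and 6.56 in reconRAG1KO and 6.26, 6.46 and 6.23 in reconSCID, with 1 reconSCID sample inside the control range. Of the genes 7 lay below the median intensity of all probe sets, a measure that also depends on how well each probe set binds, and the 3 above it were Napsa, Bpifa1 and Cyp2f2.

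Other genes of the airway lining were mostly lower in reconSCID. Of 21 measured genes of airway secretion and detoxification, 20 were lower, where 52.4% of all genes were, and 1, Agr3 (0.14), was higher, with a median of -0.26, or -0.31 in the blocked fit. None passed at an adjusted p under 0.05. At an unadjusted p under 0.05, 2 were lower and 0 higher (against 1.19% and 0.863% of all genes), and with the block 7 were lower and 0 higher (against 6.75% and 5.34% of all genes). Reg3g, an antimicrobial lectin, measured 8.82, 8.35, 9.04 and 8.09 in reconRAG1KO and 8.20, 6.89 and 7.36 in reconSCID. Only reconSCID replicate 1 reached into the control range, and the difference of Reg3g was -1.09, with a limma p of 0.0197, or -1.03 with the block. Gp2, a bacterial receptor of M cells, measured 6.75, 7.31, 6.91 and 7.97 in reconRAG1KO and 6.18, 6.91 and 6.12 in reconSCID, a difference of -0.83 with a limma p of 0.0450, or -0.91 with the block. Without the block the unadjusted p was above 0.05 for Reg3g without reconSCID replicate 2 or 3, and for Gp2 without reconRAG1KO replicate 2 or 4 or reconSCID replicate 1 or 3. Clca1, a secreted goblet cell protein, differed by -0.36 (interval from -0.78 to 0.05), by the same amount with the block, and by -0.23 without reconRAG1KO replicate 3. The 5 others with an unadjusted p under 0.05 in the blocked fit were Bpifb1, the mucin gene Muc5ac, the carbonyl reductase gene Cbr2, Gabrp and the immunoglobulin transporter gene Pigr. The 14 general epithelial genes and the neutrophil genes described above were lower in reconSCID too, and neutrophils also make lactoferrin (Ltf), which is on this list and differed by -1.01. Their part in this list's differences was not tested.

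**Figure D4:**
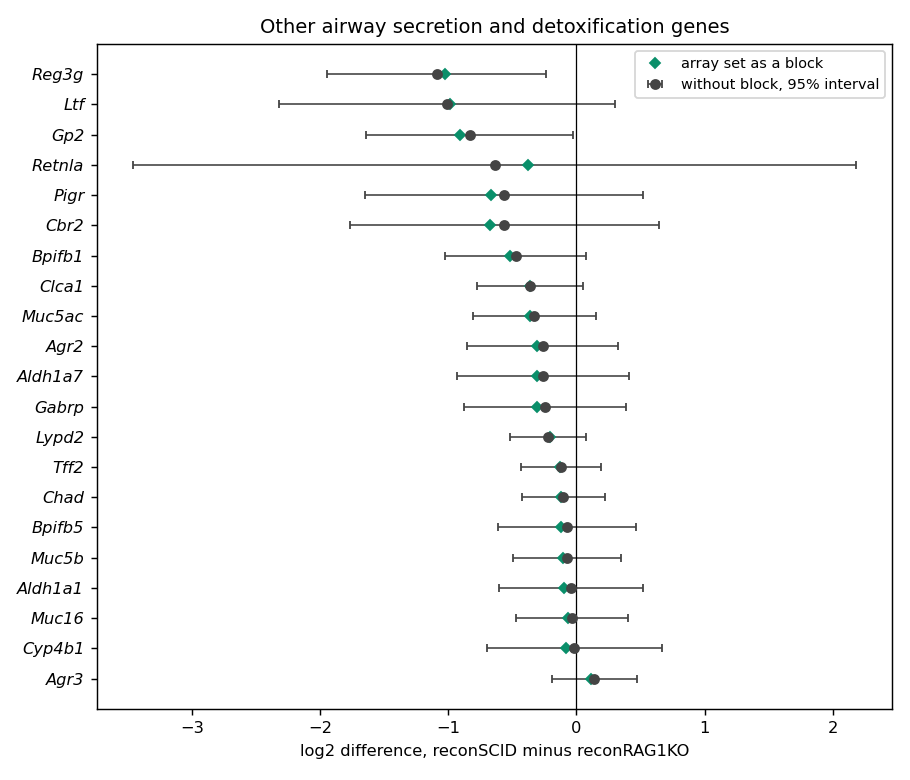
Log2 difference, reconSCID minus reconRAG1KO (x axis), of the 21 measured airway secretion and detoxification genes (y axis), without a block with its 95% interval (grey) and in the blocked fit (green). All lie below 0 except Agr3, and the intervals of Reg3g and Gp2 exclude 0.

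Genes of surfactant handling and of alveolar type 2 cells had differences closer to 0, though whether they differed from the airway genes was not tested. Of 15, 11 were lower (against 52.4% of all genes), with a median of -0.04, and 0 had an unadjusted p under 0.05 in either direction. In the blocked fit 1 of 15, the mucin gene Muc1, was lower at that p, a share near the 6.75% of all genes. Muc1 measured 8.88, 8.91, 9.34 and 9.50 in reconRAG1KO and 8.76, 8.91 and 8.08 in reconSCID, a difference of -0.58, or -0.62 with the block, and of -0.32 without reconSCID replicate 3. The phosphate transporter gene Slc34a2 differed by -0.60, or by -0.69 with the block, each with an interval that included 0. It rested on single samples and was -1.20 without reconSCID replicate 2 and -0.14 without reconSCID replicate 3. The calcium-binding protein gene S100g differed by -0.47, or by -0.42 with the block, again with intervals that included 0, by -0.80 without reconRAG1KO replicate 4 and by -0.30 without reconRAG1KO replicate 3. On the other side Lgi3 differed by 0.15 and Lamp3, of the lamellar bodies, by 0.09, with blocked values of 0.12 and 0.09.

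The transcription factors of lung and airway included Nkx2-1, which drives surfactant and secretoglobin genes in the lung. Nkx2-1 measured 6.15, 6.13, 6.14 and 6.81 in reconRAG1KO and 6.02, 6.93 and 5.92 in reconSCID, and differed by -0.02 (interval from -0.72 to 0.69), or by -0.08 with the block. Its highest sample in each group was the array of the smaller set, as for Bpifa1. Of 16 factors 11 were lower (against 52.4% of all genes), with a median of -0.08. At an unadjusted p under 0.05 there were 0 lower (against 1.19% of all genes), or 2 lower with the block, Elf3 and Sox9 (against 6.75% of all genes). Elf3, an epithelial ETS factor, differed by -0.62, or by -0.69 with the block, and by -1.004 without reconSCID replicate 2 and -0.35 without reconSCID replicate 3. Sox9 differed by -0.40, or by -0.48 with the block, and by -0.73 and -0.10 without the same samples and -0.18 without reconRAG1KO replicate 4. Spdef, a goblet cell factor, differed by -0.10, Etv5 by 0.17 and Elf5 by 0.09.

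Fluid transport and alveolar type 1 genes had 9 of 14 lower (against 52.4% of all genes), with a median of -0.03. At an unadjusted p under 0.05, 1 was lower and 0 higher (against 1.19% and 0.863% of all genes), and with the block 3 were lower, Scnn1a, Scnn1g and Clic5 (against 6.75% of all genes). Scnn1g, the gamma subunit of the epithelial sodium channel, measured 6.40, 6.41, 6.34 and 6.80 in reconRAG1KO and 6.20, 6.15 and 5.91 in reconSCID. The groups did not overlap, and the difference of Scnn1g was -0.40, with an interval from -0.74 to -0.06 and a limma p of 0.0275, or -0.42 with the block. Without reconSCID replicate 3 it was -0.31, with an unadjusted p of 0.0954. Scnn1a, the alpha subunit, was deposited at the same value, 6.79, in 3 control arrays and at 8.11 in the other, and measured 6.14, 7.23 and 6.16 in reconSCID. Scnn1a differed by -0.61 (interval from -1.63 to 0.41). With the block it differed by -0.71, with an interval from -0.87 to -0.55, a limma p of 4.1e-05 and an adjusted p of 0.233. The 3 identical control values can hide part of the spread on which that p rests. Without the block it was -0.28 without reconRAG1KO replicate 4 and -0.97 without reconSCID replicate 2. The chloride channel genes Clic5 and Cftr differed by -0.30 and 0.16, or by -0.36 and 0.17 with the block. Clic5 was at -0.07 without reconSCID replicate 3, at -0.14 without reconRAG1KO replicate 4 and at -0.54 without reconSCID replicate 2. The scaffold gene Akap5 differed by 0.08.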

How the data were processed

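The authors deposited 1 intensity per probe set and array on a linear scale, already summarised and brought to a similar level (array medians 88.6 to 96.3). How they were summarised and normalized is not stated in the sources used here. Per the labels, 6 µg of total RNA was labelled with biotin by the Affymetrix protocol. The platform annotation gave 1 gene symbol for 21640 of 34760 probe sets, several for 1321 and none for 11799, and 16049 (46.2%) held the same value in at least 2 arrays. The number of arrays limits the precision.

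Log2 values, with no pseudocount, were compared by a linear model with moderated variances (limma 3.58.1, R 4.3.3), two-sided and adjusted by Benjamini-Hochberg over 34760 probe sets at a threshold of 0.05. The test was checked on simulated data. Counts over genes used the probe set with the highest mean per gene. Array sets came from average-linkage clustering on correlations. The 10 genes, the lists and the rule for named genes were chosen with earlier results of these data known. Beyond the 10, the rule took from each list up to 3 lower and 2 higher genes by unadjusted p, plus Bpifb1 and Nkx2-1, and the 4 genes most correlated with the brightest and most variable gene. Alternatives were quantile normalization, median centring, a pseudocount of 16, a filter on low values, a robust trended fit, array weights, blocks by replicate number or array set, the larger set alone, single samples left out and, per gene, the average of its probe sets.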

Additional observations from a re-analysis of the deposited data

Results flagged for a closer look

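In 3 of the 10 genes, reconRAG1KO replicate 4 lay far above the other 3 control samples. It measured 7.54 for Bpifa1, 6.60 for Sftpb and 6.58 for Sftpd on the log2 scale. For Sftpb and Sftpd the other 3 controls held identical deposited values, so that any other value stands apart from them. Replicate 4 is the control array of the smaller set, in which 9 of the 10 genes had the higher mean, a count not set against all genes. The limit used is one that about 1 in 20 groups of untied values pass by chance, a rate that does not apply to the tied values of Sftpb and Sftpd. The cause was not tested.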

How the results depend on the processing

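No alternative gave any of the 10 genes or the other named genes an adjusted p under 0.05. Of 163 values of the 10 genes under an alternative, 144 kept their direction and 19 reversed. The reversed ones all belong to genes whose difference was near 0. Sftpc was 0.20 with array weights, 0.13 in the larger array set and -0.14 to 0.098 with 1 sample left out. Scgb3a2 ran from -0.096 to 0.23 with 1 sample left out. Cyp2f2 was -0.31 with array weights, -0.037 with the array set as a block, -0.30 in the larger set and -0.40 to 0.28 with 1 sample left out. Napsa was -0.0026 after median centring and -0.40 to 0.68 with 1 sample left out. Among the other named genes, 7 of 349 values reversed, in Spdef (-0.27 to 0.0014), Elf5 (-0.048 to 0.16), Akap5 (-0.0077 to 0.15) and Nkx2-1 (-0.34 to 0.17) with 1 sample left out, and in Nkx2-1 also with the replicate block given below. The median of the 10 genes was -0.23 to -0.077 with 1 sample left out and 0.012 over the 3 genes that the filter on low values kept. With array weights, 47 probe sets passed as higher and 10 as lower, and at an unadjusted p 765 and 394 did. With array weights Bpifa1 was at -0.80, with a limma adjusted p of 0.0594. The weights were 0.16 for reconRAG1KO replicate 4, 0.12 for reconSCID replicate 2 and 0.80 to 4.79 for the others, so this setting rests mostly on the larger array set. The causes were not tested.

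Whether the replicate numbers pair the samples is not known. Deviations of same-numbered samples correlated at 0.47, -0.51 and 0.31. These values cannot settle it, because the samples numbered 2 lie in different array sets. With the replicate block, which leaves reconRAG1KO replicate 4 without a partner, Sftpc was 0.098, Napsa -0.40, Nkx2-1 0.15, Bpifa1 -0.44 and Scgb1a1 -0.33, and 0 probe sets passed.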

Other observations

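By symbol, lists drawn up after the data had been seen, the BPI-fold family had 14 measured genes and the secretoglobin family 11. In the BPI-fold family 10 were lower in reconSCID, with a median difference of -0.07. Bpifc, of the same family, had groups that did not overlap and a difference of -0.67, with a limma p of 0.0139 that did not pass adjustment, and Bpifa2 differed by -0.24. Bpifa5, which lies between Bpifa1 and Bpifb1, differed by -0.05. In the secretoglobin family 6 of 11 were lower, with a median of -0.0032, and Scgb1a1 had the difference farthest from 0. Several secretoglobin genes have near-identical copies in the mouse, so their probe sets are uncertain. Among marker lists, 5 genes of ciliated cells had a median difference of -0.12 and 5 genes of alveolar type 1 cells of 0.02.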
